A study of Mus musculus with 16 samples.

Results

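The 44 genes described here encode collagen chains. They are all mRNAs of the deposited tables whose symbol is Col followed by a type number, the letter a and a chain number. Among 21878 mRNAs the symbol alone decided membership, but collagen was chosen as the subject with earlier results of these data known. All 44 also passed the minimum of 16 counts over all libraries, which left 17885 mRNAs for testing. RNA-seq had been performed on microglia from experimental autoimmune encephalomyelitis (EAE), a mouse model of multiple sclerosis, to compare them with microglia of mice without the disease. Each of the 16 libraries came from 1 mouse, and all mice were wild-type C57BL/6 females aged 8 weeks. In the EAE group, 8 mice were immunized with a peptide of myelin oligodendrocyte glycoprotein in complete Freund's adjuvant and received pertussis toxin intraperitoneally on days 0, 2 and 7. The methods give residues 35–55 for the peptide, whereas in the treatment field of the labels the last residue runs from 55 in EAE 1 to 62 in EAE 8. The 8 mice of the PBS group received phosphate-buffered saline (PBS) on the same schedule. Brains were taken on day 14, at a clinical score of 3–4 with EAE, and CD11b+/CD45int cells were sorted as microglia. The immunization, the adjuvant and the toxin were given together, so their effects cannot be told apart.

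Collagens are the main structural proteins of the extracellular matrix. A collagen molecule is a triple helix of chains, some types being built from identical chains and others from different ones, so that matched chains have to be made in the same cell. Fibrillar collagens form the fibers of connective tissue, type IV forms the mesh of basement membranes, type VI forms beaded filaments, and further types bind to fibril surfaces, span the plasma membrane or form hexagonal networks. In the brain, collagens are known mainly from the meninges, the walls of blood vessels and the choroid plexus, while some of the transmembrane and fibril-associated types are made by neurons.

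The libraries held 24587443 to 30244215 counts with EAE and 26031889 to 34184576 with PBS. The sorted cells were checked against marker genes, and 10 microglial genes averaged 11.9 FPKM per gene (a level normalized to gene length and library size). The averages were 127 FPKM for 8 neuronal genes, 190 for 7 astrocyte genes and 167 for 6 oligodendrocyte genes, so the libraries held much RNA that microglial markers do not account for, and no collagen level below can be assigned to microglia. In such bulk libraries, a difference in the number of cells of a type and a difference in RNA per cell cannot be told apart. EAE 6, EAE 7, EAE 8, PBS 5, PBS 7 and PBS 8 had profiles that were more alike than those of the other libraries, and because no label names a batch, results are given within these 6 libraries and within the other 10 where they matter. The 6 were picked from these data for their likeness, which by itself narrows the spread within groups, so p-values within them are too small.

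Only 4 collagen genes passed the test between the groups, and the windows around their transcription starts are shown here with that of Col4a2, because the start of Col4a2 faces that of Col4a1. Each window runs from 250 bases before to 50 bases after the start, 5′ to 3′ along the gene, as RefSeq gives it on GRCm38.p6. Capitals mark matches on either strand to 5 short motifs. These are TATAAA, known as the TATA box, CCAAT as a box of that name, and the GC box motif GGGCGG. The others are the AP-1 motif TGANTCA and the core motif of RUNX factors, TGTGGT.
Col6a5, chr9:105960594-105960893, minus strand: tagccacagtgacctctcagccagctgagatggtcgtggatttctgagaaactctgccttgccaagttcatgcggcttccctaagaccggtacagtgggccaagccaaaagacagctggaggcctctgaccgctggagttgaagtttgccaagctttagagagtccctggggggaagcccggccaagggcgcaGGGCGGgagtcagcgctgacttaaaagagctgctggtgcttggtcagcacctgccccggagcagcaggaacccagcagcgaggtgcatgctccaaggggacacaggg
Col10a1, chr10:34389731-34390030, plus strand: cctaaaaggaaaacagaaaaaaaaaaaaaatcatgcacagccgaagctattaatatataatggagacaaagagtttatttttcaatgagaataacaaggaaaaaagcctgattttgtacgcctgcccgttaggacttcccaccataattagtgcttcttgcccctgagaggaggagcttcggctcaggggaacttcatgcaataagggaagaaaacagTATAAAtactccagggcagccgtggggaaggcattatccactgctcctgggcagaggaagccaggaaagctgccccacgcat
Col4a6, chrX:141474027-141474326, minus strand: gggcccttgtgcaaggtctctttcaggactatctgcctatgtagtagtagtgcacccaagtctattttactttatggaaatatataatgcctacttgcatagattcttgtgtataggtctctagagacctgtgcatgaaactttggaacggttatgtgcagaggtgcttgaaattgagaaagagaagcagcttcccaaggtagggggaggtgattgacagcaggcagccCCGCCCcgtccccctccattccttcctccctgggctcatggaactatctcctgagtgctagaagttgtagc
Col8a1, chr16:57754688-57754987, minus strand: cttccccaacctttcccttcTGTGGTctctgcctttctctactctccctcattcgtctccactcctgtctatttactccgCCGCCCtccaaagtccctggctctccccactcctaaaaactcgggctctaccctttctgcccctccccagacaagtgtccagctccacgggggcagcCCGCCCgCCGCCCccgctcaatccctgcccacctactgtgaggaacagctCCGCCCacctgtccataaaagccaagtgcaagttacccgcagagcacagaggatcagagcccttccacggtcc
Col4a2, chr8:11312555-11312854, plus strand: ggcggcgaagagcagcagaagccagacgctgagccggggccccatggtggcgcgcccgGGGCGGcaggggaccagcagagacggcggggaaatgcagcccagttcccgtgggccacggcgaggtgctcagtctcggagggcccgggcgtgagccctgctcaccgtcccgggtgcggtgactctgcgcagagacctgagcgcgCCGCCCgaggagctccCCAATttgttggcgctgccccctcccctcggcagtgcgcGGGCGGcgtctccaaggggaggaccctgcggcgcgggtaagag
Of these windows, that of Col10a1 alone held TATAAA, 32 bases before the start. The window of Col8a1 held 4 matches to GGGCGG and 1 to TGTGGT, and the windows of Col6a5 and Col4a6 held 1 match to GGGCGG each. Windows were found for 35 of the 44 genes, with 38 windows in all because some genes have several starts. GGGCGG was present in 23 of the 38 collagen windows (60.5%) and in 35.7% of 32851 mouse promoter windows of the same length. TATAAA was present in 13.2% of the collagen windows and 13.6% of all windows, CCAAT in 34.2% and 37.4%, TGANTCA in 2.63% and 7.81%, and TGTGGT in 7.89% and 16.8%. A match describes letters in the window and is not a known binding site.

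The first question was which collagen chains differed between EAE and PBS-treated mice. In the quasi-likelihood test of edgeR, adjusted by Benjamini-Hochberg over 17885 mRNAs, 3 collagen genes were higher with EAE at an adjusted p under 0.05, namely Col6a5, Col10a1 and Col4a6. Col8a1 was lower, and the remaining 40 did not pass. Among all mRNAs tested, 0.660% were called higher and 1.76% lower, against 6.82% and 2.27% of the collagen genes. With a |log2FC| over 1 as well, 0 collagen genes passed in the edgeR test and 0 in DESeq2, against 0.117% of all mRNAs in the edgeR test. At an unadjusted p under 0.05, 10 collagen genes were higher and 1 was lower, while 17.4% of all mRNAs had such a p. The log2FC was above 0 for 37 of the 44 genes (84.1%, against 52.7% of all mRNAs), with a median of 0.14 against 0.01 over all mRNAs. This share has to be read beside that of mRNAs of like count and length. Within the middle range of the counts of the collagen genes, 55.1% of 5849 mRNAs were above 0, with a median log2FC of 0.02. The 22 collagen genes in this range had 77.3% above 0 and a median of 0.07. Within the middle ranges of both counts and lengths, 69.6% of 572 mRNAs were above 0, with a median log2FC of 0.06, and the 10 collagen genes in these ranges had 80.0% above 0 and a median of 0.05. Col6a5, Col10a1, Col4a6 and Col8a1 were not among these 10 genes, so this comparison does not cover them. The 95% confidence interval of the log2FC lay between −1 and 1 for 41 of the 44 genes.

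**Figure D1:**
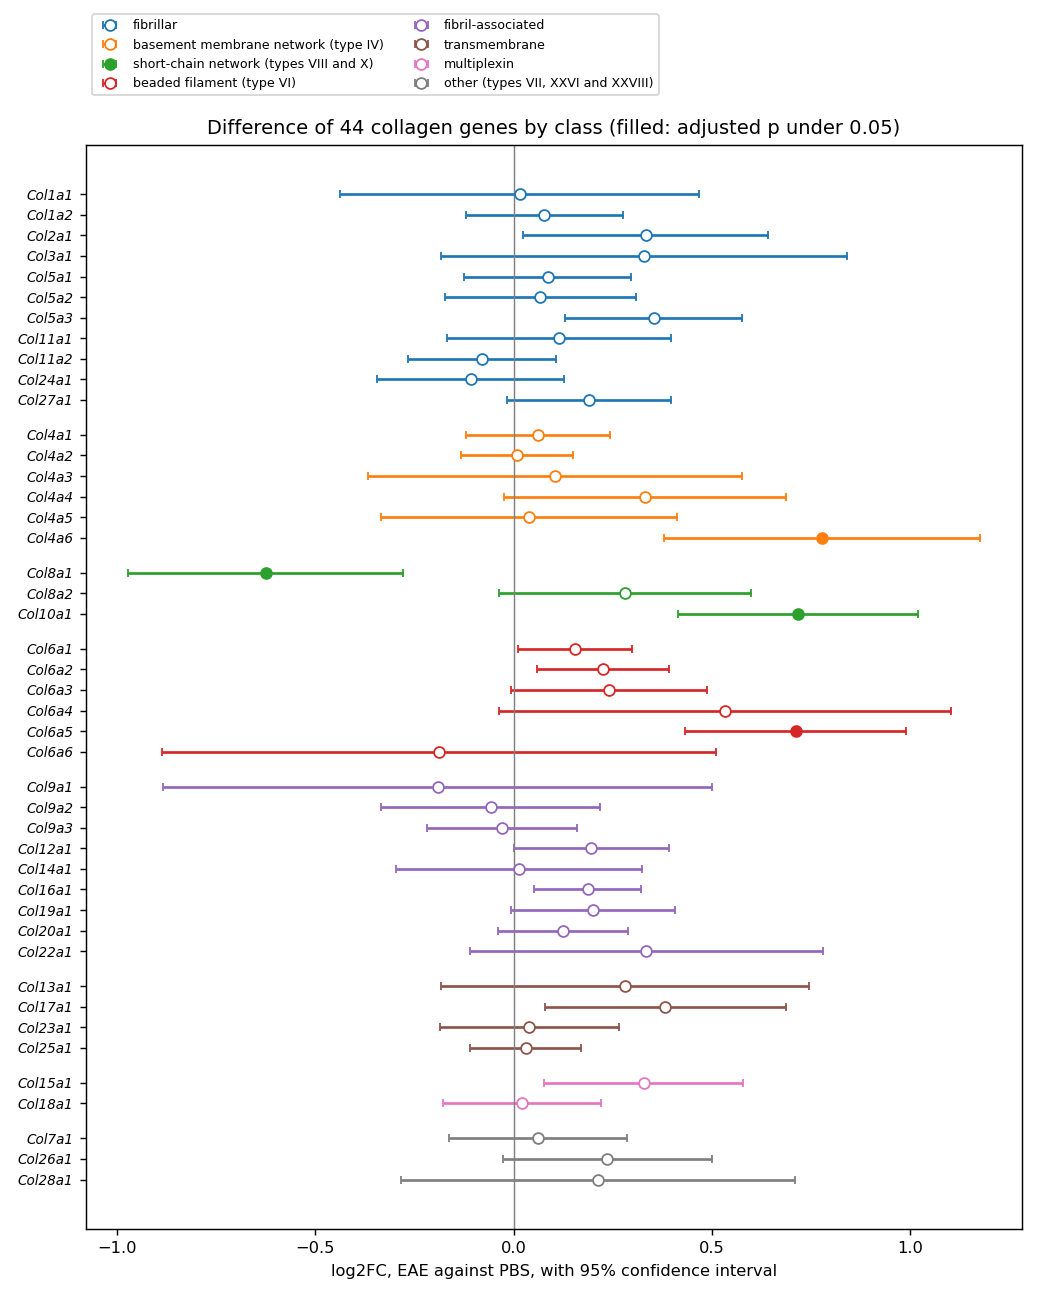
The log2FC of each of the 44 collagen genes (EAE against PBS, 8 libraries each) with its 95% confidence interval from edgeR's quasi-likelihood fit, grouped and coloured by structural class, filled where the adjusted p was under 0.05. Most points lie right of 0, with 37 above it, and only Col6a5, Col10a1, Col4a6 and Col8a1 are filled.

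Col6a5 was the collagen gene with the smallest p. It encodes a chain of type VI collagen that can replace the more common chain encoded by Col6a3, and it lies on chromosome 9 from 105856078 to 105960643 (GRCm38, minus strand) without an overlapping gene. Its FPKM was 0.402 at the lowest, 0.497 at the median and 0.607 at the highest with EAE, and 0.197, 0.314 and 0.352 with PBS. All 8 EAE libraries were above all 8 PBS libraries, which was the case for 0.162% of all mRNAs. The log2FC was 0.71 (SE 0.13, adjusted p = 0.00880 in the edgeR test). An exact permutation test of the mean FPKM gave p = 0.000155 (two-sided, all 12870 divisions of 8 against 8, the smallest p that this design allows), or 0.00389 when adjusted over 25 named collagen genes. Some of these 25 genes, Col6a5 among them, were named because of their p in the edgeR test on the same libraries. The exact tests of those genes, here and below, are therefore no independent test. Col6a5 rested on 51 to 145 counts per library. It passed in each of the 16 fits in which a single library was left out, and in all 9 other fits with 16 libraries. Its log2FC was 0.67 within the 6 most alike libraries (edgeR adjusted p = 0.0108) and 0.73 within the other 10 (adjusted p = 0.148).

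Col10a1 encodes the only chain of type X collagen, a short-chain network collagen known from hypertrophic cartilage. Its FPKM ranged from 0.993 over a median of 1.41 to 1.70 with EAE and from 0.653 over 0.754 to 1.25 with PBS. PBS 6 alone reached 1.25, while the next highest PBS library was at 0.785, below all EAE libraries, and 5 EAE libraries were above PBS 6. The log2FC was 0.72 (SE 0.15, edgeR adjusted p = 0.0140), and the exact permutation test gave p = 0.000622. Like Col6a5, the gene passed in all 16 fits that left out 1 library and in the 9 other fits. The log2FC was 1.00 within the most alike libraries (edgeR adjusted p = 0.000784) and 0.55 within the others (adjusted p = 0.322). Col10a1 lies inside Nt5dc1, on chromosome 10 from 34389981 to 34397085 (GRCm38, plus strand) and on the opposite strand to it, with 18 exonic bases shared. Nt5dc1 had a log2FC of 0.19 (edgeR adjusted p = 0.349) and levels of 2.98 ± 0.34 FPKM (SD, n = 8) with EAE and 2.52 ± 0.37 with PBS. The library type is stated to be stranded, but the strand setting of the counting is not given in the sources used here, so reads of Nt5dc1 in the counts of Col10a1 were not tested.

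Col4a6 encodes a type IV chain that joins the chain of Col4a5 in certain basement membranes, such as those around smooth muscle. Its FPKM was 0.275 to 0.569 with EAE, with a median of 0.384, and 0.158 to 0.297 with PBS, with a median of 0.235. The groups overlapped, with 6 EAE libraries above the highest PBS library. The 3 lowest EAE values, 0.275, 0.285 and 0.298 FPKM, were those of EAE 6, EAE 7 and EAE 8, the EAE libraries of the most alike set. The log2FC was 0.78 (SE 0.19, edgeR adjusted p = 0.0339), and the exact permutation test gave p = 0.000622. The call was less stable than those of Col6a5 and Col10a1. It was kept in 8 of the 16 fits that left out 1 library, and its edgeR adjusted p rose to 0.0786 without PBS 2. limma on log2(FPKM + 0.1) did not call it (adjusted p = 0.0624), nor did edgeR with the replicate number as a block (adjusted p = 0.0655). Within the most alike libraries the log2FC was 0.48 (edgeR adjusted p = 0.258), and within the others it was 0.90 (adjusted p = 0.139).

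Col8a1, a chain of the hexagonal type VIII network known from the basement membrane of the cornea and from vessel walls, was the only lower collagen gene. Its FPKM was 0.430 to 0.912 with EAE, with a median of 0.504, and 0.622 to 1.13 with PBS, with a median of 0.765. Of the EAE libraries, 7 lay below the lowest PBS library while EAE 4, at 0.912, was exceeded only by PBS 2 and PBS 4. The log2FC was −0.63 (SE 0.17, edgeR adjusted p = 0.0489), and the exact permutation test gave p = 0.00684. This call was at the limit. It remained in only 2 of the 16 fits that left out 1 library, without EAE 4 or without PBS 8, and the edgeR adjusted p was 0.116 without PBS 2. limma on log2(FPKM + 0.1) did not call it either (adjusted p = 0.0890). The log2FC was −0.49 within the most alike libraries (edgeR adjusted p = 0.0893) and −0.70 within the others (adjusted p = 0.232).

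**Figure D2:**
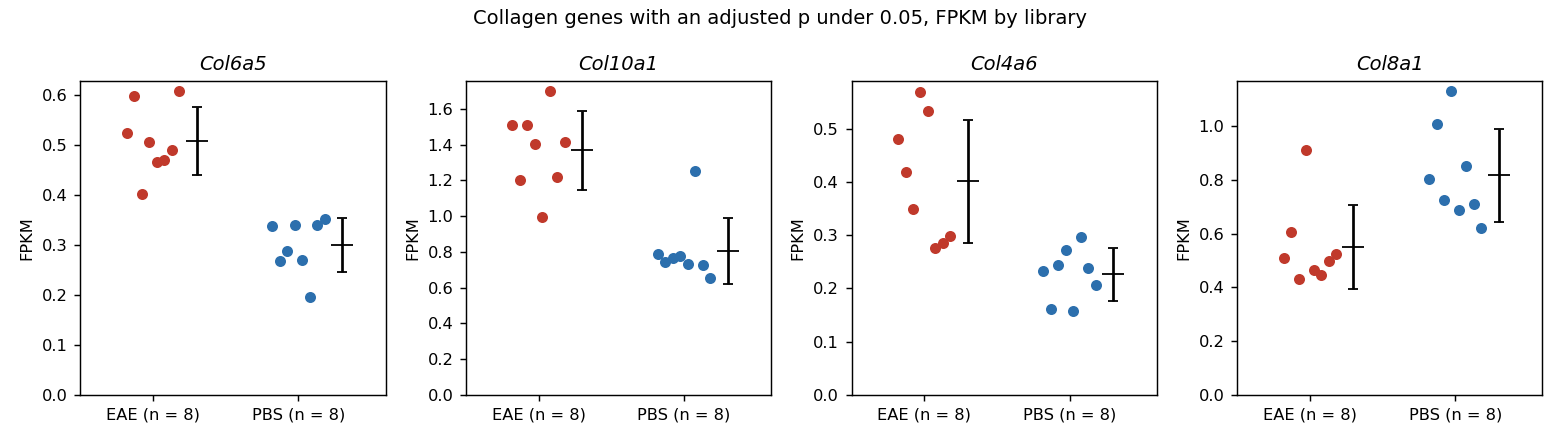
FPKM of Col6a5, Col10a1, Col4a6 and Col8a1 in each of the 8 EAE (red) and 8 PBS (blue) libraries, with the mean and SD of each group as a black bar beside the points. The groups of Col6a5 do not overlap, PBS 6 stands at 1.25 FPKM for Col10a1, and EAE 4 stands at 0.912 FPKM for Col8a1.

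Type VI collagen is a microfibril of 3 different chains. Col6a1 had the highest level of all collagen genes, at 31.7 ± 3.62 FPKM (SD, n = 8) with EAE and 27.5 ± 2.42 with PBS. Its log2FC of 0.15 (SE 0.07, edgeR adjusted p = 0.249) did not pass, although 6 EAE libraries were above the highest PBS library at 31.0 FPKM. Col6a2, at 6.63 ± 0.87 and 5.48 ± 0.54 FPKM, had a log2FC of 0.23 (SE 0.08, adjusted p = 0.139) and also had 6 EAE libraries above the highest PBS library. Of the 16 fits that left out 1 library, it was called in 1, with an adjusted p of 0.0244 without EAE 5 against 0.250 without EAE 6. Col6a3, which encodes the largest of the common chains, was at 1.03 ± 0.18 and 0.844 ± 0.167 FPKM, with a log2FC of 0.24 (SE 0.12, adjusted p = 0.302). The 2 further genes of this type were Col6a4, whose log2FC of 0.53 had a 95% confidence interval from −0.04 to 1.10, and Col6a6, the least abundant collagen gene at 0.0962 FPKM, whose interval from −0.89 to 0.51 leaves its direction unknown. Summed over the 6 genes, type VI took 20.5% to 29.4% of the collagen FPKM of a library, the largest share of any class on average.

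Type IV collagen forms basement membranes, and the chains of Col4a1 and Col4a2 make up its most widespread form. They were the next most abundant collagen genes. Col4a1 ranged from 14.2 to 23.5 FPKM with EAE and from 13.8 to 19.3 with PBS, and its log2FC was 0.06 (95% confidence interval −0.12 to 0.24). Col4a2 ranged from 15.9 to 22.7 FPKM and from 14.7 to 19.9, with a log2FC of 0.01 (95% confidence interval −0.13 to 0.15). The highest library of both genes was EAE 5, followed by PBS 1 for both. Within the most alike libraries, Col4a2 was lower with EAE with a log2FC of −0.13 (edgeR adjusted p = 0.0232). Col4a3 and Col4a4, the chains known from the filtration barrier of the kidney, were at 0.141 and 0.309 FPKM over all libraries and had log2FC values of 0.10 and 0.33 (edgeR adjusted p = 0.858 and 0.324).

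Col4a5, whose chain joins that of Col4a6, did not pass the test. It was at 0.724 ± 0.220 FPKM (SD, n = 8) with EAE and 0.682 ± 0.166 with PBS, with a log2FC of 0.04 (SE 0.18, edgeR adjusted p = 0.940). The 2 genes lie head to head on the X chromosome, with RefSeq starts 1343 bases apart. The ratio of Col4a5 to Col4a6 was therefore compared within each library, and the same was done for 10 further pairs of chains, a comparison that was added after the data were seen. The log2 ratio of Col4a5 to Col4a6 ran from 0.13 to 1.20 with EAE and from 1.22 to 1.91 with PBS, so that the groups did not overlap. The means were 0.85 ± 0.34 (SD, n = 8) and 1.59 ± 0.23, a difference of −0.74 (exact permutation test, two-sided, p = 0.000155, adjusted p = 0.00171 over 11 pairs). Leaving out 1 library gave differences from −0.79 to −0.63. The difference was −0.46 within the most alike libraries, where 3 against 3 allow no exact p below 0.1, and −0.90 within the others. Since Col4a6 had been called beforehand on the same libraries, the ratio is no independent test of it.

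The ratio of Col8a1 to Col8a2 was compared as well, and like that of Col4a6 it restates a call made on the same libraries and is no independent test. Col8a2, the second chain of type VIII, was at 1.02 ± 0.27 FPKM (SD, n = 8) with EAE and 0.814 ± 0.115 with PBS, with a log2FC of 0.28 (SE 0.15, edgeR adjusted p = 0.355). The log2 ratio was −0.89 ± 0.47 with EAE and −0.01 ± 0.43 with PBS, a difference of −0.88 (exact permutation test, two-sided, p = 0.00233, adjusted p = 0.0128 over 11 pairs). The difference was −0.31 within the most alike libraries and −1.22 within the others. For the other 9 pairs the smallest adjusted p was 0.558, and the ratio of Col4a1 to Col4a2 differed by 0.04, with SDs of 0.09 in both groups.

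**Figure D3:**
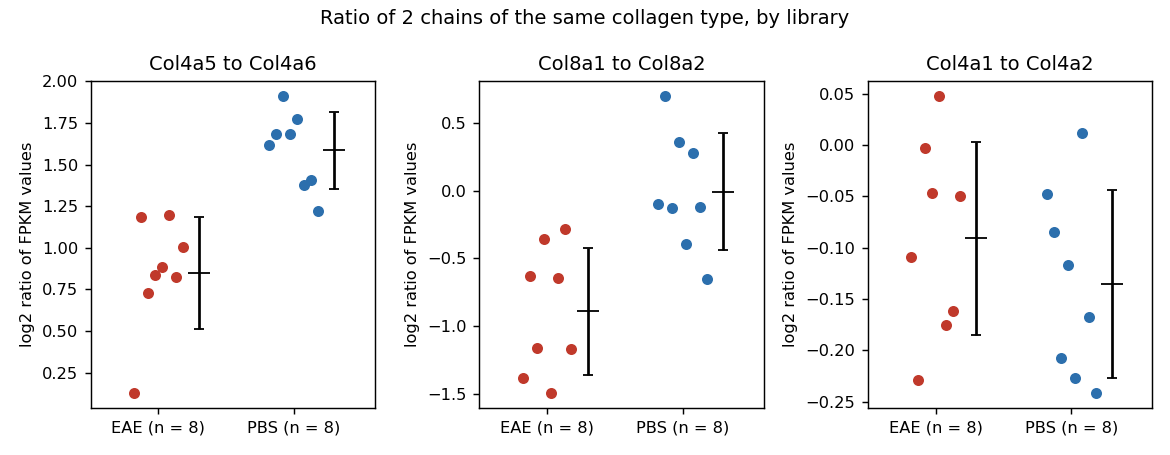
The log2 ratio of the FPKM values of 2 chains of the same collagen type in each of the 8 EAE (red) and 8 PBS (blue) libraries, with group mean and SD in black; the vertical axes differ between panels. The groups do not overlap for Col4a5 to Col4a6 and overlap for Col8a1 to Col8a2 and Col4a1 to Col4a2.

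Of the 11 fibrillar genes, 0 passed in edgeR's quasi-likelihood test, against 2.42% of all mRNAs. An unadjusted p under 0.05 was found for 2 of the 11 and a log2FC above 0 for 9, against 17.4% and 52.7% of all mRNAs. DESeq2 called 1 of the 11 and edgeR's exact test 1, against 5.03% and 4.17% of all mRNAs, and limma called 0. Col1a1 and Col1a2, the chains of type I collagen of connective tissue, had log2FC values of 0.01 and 0.08. The interval for Col1a1, from −0.44 to 0.47, was wide because the gene varied within groups, from 1.45 to 4.08 FPKM with EAE and from 1.40 to 3.82 with PBS. Col3a1, the chain of type III collagen, ranged from 0.746 to 3.28 FPKM with EAE and from 0.768 to 1.94 with PBS, and its log2FC of 0.33 (SE 0.25, edgeR adjusted p = 0.531) fell to 0.10 without EAE 4. Col5a3, a chain of the type V collagen that regulates fibril diameter, came closest to a call. It was at 2.18 ± 0.32 FPKM (SD, n = 8) and 1.65 ± 0.27, with 5 EAE libraries above the highest PBS library and a log2FC of 0.35 (SE 0.11, edgeR adjusted p = 0.0824). Its exact permutation p was 0.00295, and it was the fibrillar gene called by DESeq2 and by edgeR's exact test. Over all 44 genes DESeq2 called 4 higher and 1 lower, against a background of 1.66% and 3.37% of all mRNAs. Col2a1, the main collagen of cartilage, had a log2FC of 0.33 (edgeR adjusted p = 0.248) at 0.655 ± 0.116 and 0.501 ± 0.105 FPKM.

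The fibril-associated collagens bind to the surface of fibrils. Of 9 genes, 0 passed in edgeR's quasi-likelihood test and 1 had an unadjusted p under 0.05, against 2.42% and 17.4% of all mRNAs. DESeq2, edgeR's exact test and limma called 0. The gene with the unadjusted p under 0.05 was Col16a1, at 5.67 ± 0.59 FPKM (SD, n = 8) with EAE and 4.81 ± 0.30 with PBS. Its log2FC was 0.19 (SE 0.06, edgeR adjusted p = 0.130), 6 EAE libraries were above the highest PBS library, and it was called in 1 of the 16 fits that left out 1 library. Its adjusted p was 0.0268 without EAE 4, where the calls among all mRNAs rose from 2.42% to 7.38%, and 0.238 without EAE 7. Col19a1, a type known to be made by neurons of the hippocampus, had 6.59 ± 0.64 and 5.54 ± 1.22 FPKM and a log2FC of 0.20 (edgeR adjusted p = 0.303). Within the most alike libraries, where 24.1% of all mRNAs were called, its log2FC was 0.44 (edgeR adjusted p = 3.65e-07), and within the others it was 0.07 (adjusted p = 0.903). Col12a1 had a log2FC of 0.20 (edgeR adjusted p = 0.288), and it was called without PBS 4 (adjusted p = 0.0455), the PBS library in which it was highest, but in none of the other 15 fits that left out 1 library (adjusted p up to 0.436). Col9a3, a chain of type IX from cartilage, was at 4.86 ± 0.66 and 4.80 ± 0.66 FPKM, with a log2FC of −0.03, and shares 234 exonic bases with Tcfl5 on the opposite strand.

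The transmembrane collagens, multiplexins and remaining types had log2FC values above 0 in all 9 genes, from 0.02 for Col18a1 to 0.38 for Col17a1. Of all mRNAs, 52.7% were above 0. The quasi-likelihood test of edgeR called 0 of the 9 genes, against 2.42% of all mRNAs. At an unadjusted p under 0.05 there were 2, Col17a1 and Col15a1, against 17.4% of all mRNAs. DESeq2, edgeR's exact test and limma called 0. Col17a1, known from the anchoring of skin epithelium, was at 0.660 ± 0.11 FPKM (SD, n = 8) with EAE and 0.489 ± 0.093 with PBS, with 5 EAE libraries above the highest PBS library (edgeR adjusted p = 0.171). Col15a1, which lies beneath basement membranes, was at 2.05 ± 0.19 and 1.58 ± 0.38 FPKM, with a log2FC of 0.33 (edgeR adjusted p = 0.155). PBS 4, at 2.28 FPKM, was its highest library, and without PBS 4 the adjusted p was 0.0324, the only call among the 16 fits that left out 1 library (adjusted p = 0.260 without PBS 3). Col25a1, a transmembrane collagen of neurons that is also found in amyloid plaques, was abundant, at 10.4 ± 0.77 and 9.82 ± 1.23 FPKM, and had a log2FC of 0.03 (95% confidence interval −0.11 to 0.17).

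The levels of the 44 genes spanned a wide range. After Col6a1, Col4a2, Col4a1 and Col25a1 came Col19a1, Col6a2, Col16a1, Col20a1, Col9a3 and Col1a2, all with a mean between 4.59 and 6.06 FPKM over 16 libraries. A mean above 1 FPKM was found for 27 genes, and only Col6a6 was below 0.1 FPKM. Summed over the 44 genes, the FPKM of a library ranged from 150 to 165 with EAE, with a median of 159, and from 126 to 158 with PBS, with a median of 140. By class, type VI held 25.5% of this sum on average, type IV 23.3%, the fibril-associated genes 18.6%, the fibrillar genes 17.1% and the transmembrane genes 9.71%. The FPKM values were used without the TMM normalization of the edgeR fit. Over all mRNAs the median log2FC was 0.05 in limma on log2(FPKM + 0.1) and 0.01 in the edgeR fit. The part of this offset in the FPKM differences between the groups was not tested. The 4 called genes were among the less abundant, with means of 0.314 FPKM for Col4a6, 0.403 for Col6a5, 0.683 for Col8a1 and 1.09 for Col10a1. Over all 16 libraries, the coefficient of variation was lowest for Col25a1, at 10.2%, and highest for Col3a1, at 44.8%.

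**Figure D4:**
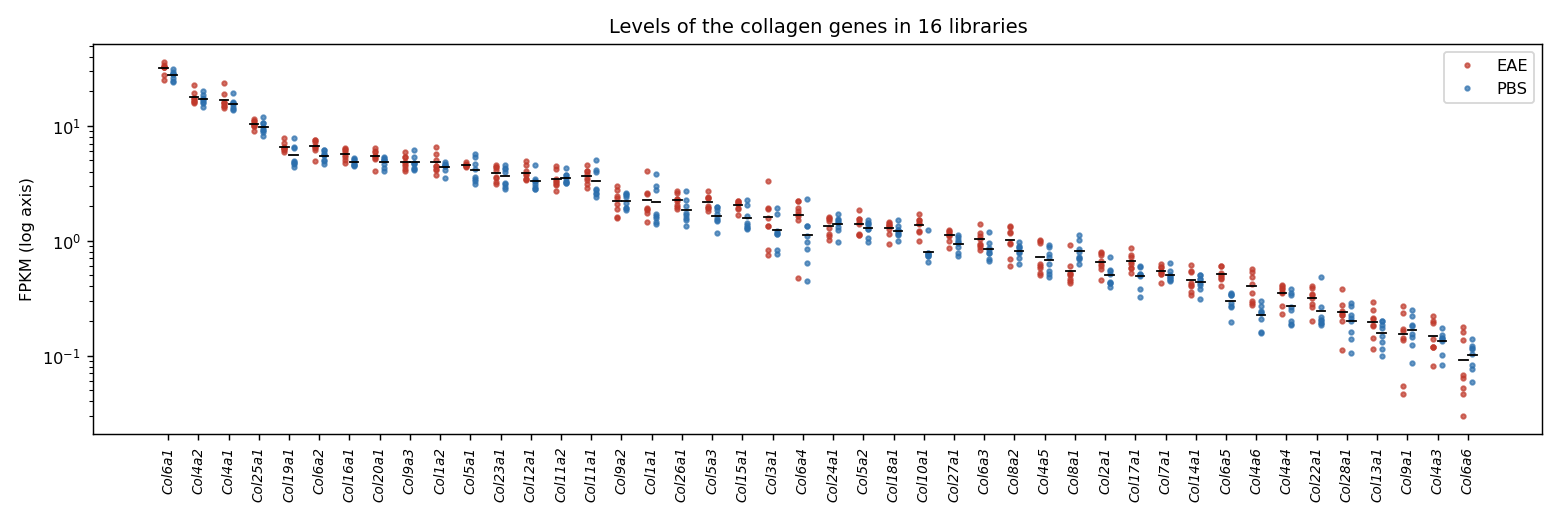
FPKM of each of the 44 collagen genes on a log axis, ordered by mean level over 16 libraries, with 1 point per library (EAE red, PBS blue) and a black line at the mean of each group. Levels run from 29.6 FPKM for Col6a1 down to 0.0962 FPKM for Col6a6, and for most genes the points of both groups overlap.

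Levels were then compared over libraries for 16 pairs of genes (Pearson's r and Spearman's rho on log2(FPKM + 0.1), permutation test with 100000 resamples, two-sided, adjusted over the 16 pairs). They were pairs of chains of the same collagen type, Col1a1 with Col3a1, and 4 pairs of a chain with a fibroblast, endothelial or mural marker gene. Col4a1 and Col4a2, which share a start region of 22 bases on chromosome 8, had r = 0.90 (p = 2e-05, adjusted p = 0.00032) and rho = 0.71 (adjusted p = 0.0151). Without EAE 5 and PBS 1, the 2 libraries farthest from the median of Col4a1, r was 0.71. Col6a1 and Col6a2 had r = 0.86 (p = 4e-05, adjusted p = 0.00032) and rho = 0.83 (adjusted p = 0.00144), and r was 0.87 without the 2 farthest libraries. Col1a1 and Col1a2 had r = 0.75 (p = 0.00061, adjusted p = 0.00325) and rho = 0.78 (adjusted p = 0.00504), and r was 0.64 without EAE 4 and PBS 1. These 3 pairs moved together over libraries, whereas Col1a1 and Col3a1, which are laid down in the same fibers, had r = 0.13 (p = 0.642, adjusted p = 0.978) and rho = 0.05 (adjusted p = 0.931), and r was −0.12 without EAE 4 and PBS 1. In the EAE libraries alone, r was 0.95 for Col4a1 with Col4a2, 0.75 for Col6a1 with Col6a2 and 0.91 for Col1a1 with Col1a2 (adjusted p = 0.0212, 0.134 and 0.0166 in the exact permutation test), and without the 2 farthest libraries it was 0.39, −0.06 and 0.67. In the PBS libraries alone r was 0.81, 0.87 and 0.66, and none of these passed (adjusted p = 0.0842, 0.0842 and 0.102 in the exact permutation test). Col6a1 with Col6a3 and Col4a3 with Col4a4 had r = 0.05 and r = 0.01 (adjusted p = 0.978 for both in the permutation test). For Col6a1 with Col6a3, r was −0.85 in the EAE libraries (adjusted p = 0.0375 in the exact permutation test), where it was −0.18 without EAE 4 and EAE 5, and 0.25 in the PBS libraries (adjusted p = 0.689).

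Col3a1 was also compared with Dcn, a marker gene of fibroblasts, and had r = 0.69 (p = 0.00316, adjusted p = 0.0126) with rho = 0.60 (adjusted p = 0.0628). Without EAE 1 and EAE 4, r was 0.45. In the EAE libraries alone r was 0.95 (adjusted p = 0.00317 in the exact permutation test), and 0.85 without EAE 1 and EAE 4. In the PBS libraries alone it was 0.41 (adjusted p = 0.464 in the same test), and 0.007 without PBS 2 and PBS 6. Col1a1 with Dcn, the other pair of a fibrillar chain with this marker, had r = −0.02 over all 16 libraries (adjusted p = 0.978 in the permutation test). Its r was 0.65 in the EAE libraries and −0.81 in the PBS libraries (adjusted p = 0.167 and 0.0842 in the exact permutation test). Without the 2 farthest libraries of each group, these values were −0.15 and −0.67. Within the 10 libraries outside the most alike set, r was 0.94 for Col4a1 with Col4a2, 0.87 for Col6a1 with Col6a2, 0.76 for Col1a1 with Col1a2 and 0.89 for Col3a1 with Dcn. Within the 6 most alike libraries the values were 0.59, 0.74, −0.72 and −0.63, and none of these 4 had an adjusted p under 0.565 in the permutation test with 6 libraries. The sign of r was thus reversed within that set for Col1a1 with Col1a2 and for Col3a1 with Dcn, but 6 libraries are too few to show that a relation is absent. For Col1a1 with Col1a2, r was 0.05 there without EAE 6 and PBS 5. For Col3a1 with Dcn, it was −0.63 without EAE 7 and PBS 5. Over all 16 libraries, 0 of the 11 other pairs, Col1a1 with Dcn among them, passed the permutation test at an adjusted p under 0.05. Of these pairs, 1 had an unadjusted p under 0.05, and the smallest adjusted p was 0.0998, for Col4a5 with Col4a6 (p = 0.0312, r = 0.54, and 0.26 without EAE 4 and EAE 5).

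**Figure D5:**
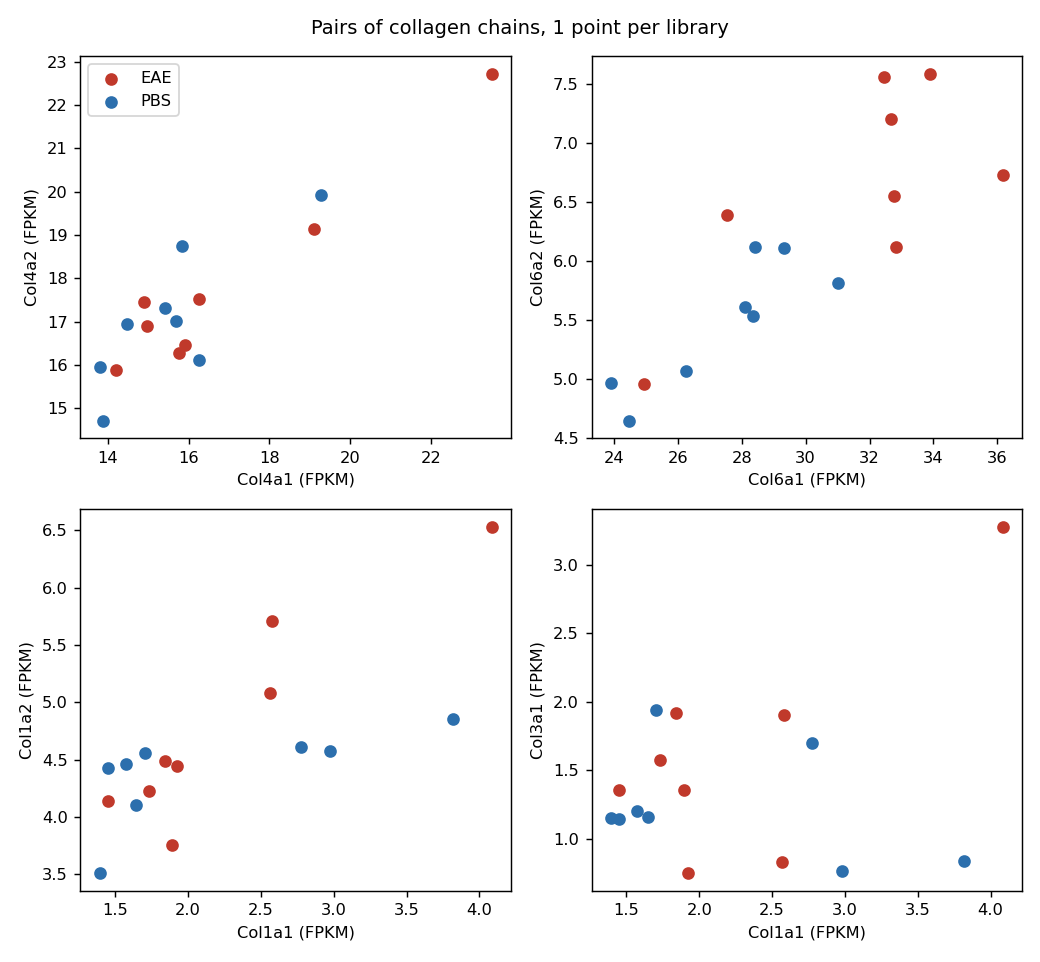
FPKM of 2 collagen chains plotted against each other for Col4a1 and Col4a2, Col6a1 and Col6a2, Col1a1 and Col1a2, and Col1a1 and Col3a1, with 1 point per library (EAE red, PBS blue). The first 3 pairs rise together, with EAE 5 far up in the panel of Col4a1, and Col1a1 and Col3a1 show no common slope.

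The genes around collagen were counted from 5 lists with 71 genes, all tested, that cover folding, trimming and cross-linking, breakdown, receptors and the basement membrane. In edgeR's quasi-likelihood test, 0 were higher and 1 was lower at an adjusted p under 0.05, with 6 higher and 6 lower at an unadjusted p under 0.05. These are 1.41% and 16.9% of the 71 genes, against 2.42% and 17.4% of all mRNAs. DESeq2 and edgeR's exact test called 3, against 5.03% and 4.17% of all mRNAs, and limma called 0. The median log2FC was 0.03, and 43 of the 71 were above 0. The lower gene was Adgrg1, an adhesion receptor known to bind type III collagen in the developing brain, at 25.1 ± 2.1 FPKM (SD, n = 8) with EAE and 29.2 ± 2.42 with PBS. Its log2FC was −0.27 (SE 0.06, edgeR adjusted p = 0.0190), and its adjusted p was 0.0519 without EAE 2 and 0.0540 without PBS 2. The other genes that DESeq2 called were Lox, an enzyme that cross-links collagen, and Timp2, an inhibitor of collagen breakdown. Lox was at 1.70 ± 0.37 and 1.07 ± 0.31 FPKM, with a log2FC of 0.61 (SE 0.17, edgeR adjusted p = 0.0634). Timp2 was at 62.6 ± 7.18 and 70.6 ± 3.09 FPKM, with a log2FC of −0.22 (SE 0.06, edgeR adjusted p = 0.0571). The 20 folding and modification genes, which include the collagen chaperone Serpinh1 (log2FC 0.05), had a median log2FC of 0.02 and a range from −0.23 to 0.08.

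Markers of other cell types were measured beside the collagen genes. The summed FPKM of 10 fibroblast markers was 34.3 to 55.1 with EAE and 37.5 to 47.1 with PBS. That of 10 endothelial markers was 52.0 to 78.2 and 45.5 to 75.1, and that of 10 mural markers was 41.4 to 60.0 and 44.3 to 59.0. The edgeR test called 0 of the fibroblast and 0 of the endothelial markers, against 2.42% of all mRNAs. DESeq2, edgeR's exact test and limma called 0 of either list. At an unadjusted p under 0.05, 1 fibroblast marker was higher and 2 were lower, with 0 endothelial markers, while 17.4% of all mRNAs had such a p. The log2FC was above 0 for 2 of 10 fibroblast, 4 of 10 endothelial and 3 of 10 mural markers, against 52.7% of all mRNAs. The edgeR test called 1 mural marker, Vtn, which was lower (log2FC −0.47, edgeR adjusted p = 0.0400). The 8 choroid plexus markers summed to 117 to 191 FPKM with EAE and 144 to 306 with PBS. The edgeR test called 1 of them lower, Ttr, the main secreted protein of that epithelium, with a log2FC of −0.88 (SE 0.18, edgeR adjusted p = 0.0163). Of the 8 markers, 2 had a log2FC above 0, and 4 were lower at an unadjusted p under 0.05. DESeq2 called 3 (Enpp2, Kl and Ttr), edgeR's exact test called these and Aqp1, and limma called 0. The 10 microglial markers summed to 101 to 158 FPKM and 87.6 to 148, and Trem2 was called higher (log2FC 0.56, edgeR adjusted p = 0.0282). The 8 neuronal markers summed to 859 to 1039 FPKM with EAE and 1007 to 1110 with PBS, and 1 of the 8 had a log2FC above 0. Of these, Gad1 (log2FC −0.53, edgeR adjusted p = 0.00309) and Syt1 (−0.28, adjusted p = 0.0326) were called lower. The 7 astrocyte markers summed to 1105 to 1677 and 1277 to 1516 FPKM, with 1 of the 7 above 0, which was Gfap, called higher (log2FC 0.50, edgeR adjusted p = 0.0312). The edgeR test called 0 of 6 oligodendrocyte precursor and 0 of 5 ependymal markers. At an unadjusted p under 0.05, 2 precursor markers were lower and 1 ependymal marker was higher. DESeq2, edgeR's exact test and limma called 0 of either list. The sums were 91.7 to 146 FPKM with EAE and 109 to 148 with PBS for precursors, and 8.68 to 21.0 and 8.13 to 14.3 for ependyma. No marker of these lists was at 0 in every library, and the part of these cell types in the collagen differences was not tested.

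The comparison was repeated within the set of most alike libraries, with 3 EAE and 3 PBS libraries. There, 11 collagen genes were higher and 3 were lower in the edgeR test, against a background of 11% and 13.1% of 17239 mRNAs. Col6a5 and Col10a1 were among the 11, with Col5a1, Col5a3, Col6a1, Col6a2, Col6a4, Col15a1, Col16a1, Col19a1 and Col25a1. The lower genes were Col4a2, Col9a2 and Col24a1, and neither Col4a6 nor Col8a1 was called. In the 5 remaining libraries per group, edgeR's quasi-likelihood test called 0 collagen genes in either direction, against a background of 0.0458% higher and 0.0286% lower among 17461 mRNAs. At an unadjusted p under 0.05, 5 were higher and 1 was lower there, while 10.8% of all mRNAs had such a p, and the other tools were not run on these libraries. With a term for the set of libraries in the model, 4 genes were higher, with Col5a3 as the added gene, and Col8a1 was lower, against 4.29% of all mRNAs called in either direction.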

How the data were processed

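RNA-seq was performed on CD11b+/CD45int cells from 16 mice, 8 with EAE and 8 treated with PBS, with 1 stranded library per mouse. According to the submitters' processing notes, reads were handled with bcl2fastq, HISAT2 (2.1.0), HTSeq (0.11.2) and DESeq2 (1.22.2), with alignment to GRCm38. The authors deposited raw read counts per mRNA and FPKM values for the same mRNAs and libraries. The FPKM values deposited by the authors are relative to gene length and library size. The annotation was taken from RefSeq databases, and its version and the strand setting of the counting are not given in the sources used here.

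Counts were tested with the quasi-likelihood test of edgeR (4.0.16, R 4.3.3) after TMM normalization, on mRNAs with at least 16 counts in total, with Benjamini-Hochberg adjustment over all mRNAs tested and a threshold of 0.05. Confidence intervals are 95% intervals. FPKM values served for levels, correlations (log2(FPKM + 0.1)) and exact permutation tests, with scipy (1.17.1) and Python (3.11.15). Alternatives were DESeq2 (1.42.0), edgeR's exact test, limma (3.58.1) on log2(FPKM + 0.1) and log2(FPKM + 1), other filters and size factors, a replicate block, sets of libraries and leaving out each library. Fits were tested on simulated data. Promoter windows are RefSeq's, and positions are from GENCODE on GRCm38.

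The collagen genes and gene lists were chosen with earlier results of these data known, as was the set of most alike libraries. Named collagen genes were those called, the 10 with the highest mean FPKM, the 6 further genes with the smallest p, and the chains of types I, III, IV and Col6a1 to Col6a3. Of the partner lists, called genes were named, and Lox, Timp2 and Serpinh1 were named after their values were seen, as were Col5a1, Col6a4, Col6a6, Col8a2, Col9a2, Col18a1 and Col24a1. Chains of a type resemble each other, and how reads shared between them were counted is not given in the sources used here.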

Additional observations from a re-analysis of the deposited data

Results flagged for a closer look

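In each of the 44 genes and each group of 8 libraries, the library farthest from the others was examined. A library was listed where its distance to the nearest library took up more of the group's range than Dixon's critical value at 95% allows for 8 samples, which chance alone gives in about 1 of 20 groups. Of 88 groups, 8 had such a library. EAE 4 stood apart with high values of 3 genes, at 4.08 FPKM of Col1a1 (next library 2.58), 3.28 FPKM of Col3a1 (next 1.92) and 0.912 FPKM of Col8a1 (next 0.607). PBS 4 stood apart with high values of 2 genes, at 4.59 FPKM of Col12a1 (next 3.42) and 0.481 FPKM of Col22a1 (next 0.267). PBS 1 was high for Col4a1, at 19.3 FPKM (next 16.3), and PBS 6 was high for Col10a1, at 1.25 FPKM (next 0.785). EAE 5 was low for Col6a4, at 0.478 FPKM, where the next library was at 1.52.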

How the results depend on the processing

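The number of collagen genes called higher was 3 or 4 with DESeq2 size factors, other filters, DESeq2, edgeR's exact test and a term for the set of most alike libraries, and 2 with limma. Within the most alike libraries it was 11, with 3 lower genes, and within the others it was 0, with 0 lower genes. The lower gene was lost with no filter and with both limma fits (0 each). With a |log2FC| over 1 as well, 0 genes were left over all libraries in edgeR's quasi-likelihood test and in DESeq2. Within the most alike libraries, Col10a1 had a log2FC of 1.003 (edgeR adjusted p = 0.000784). Of the 71 partner genes, 3 were called by DESeq2, by edgeR's exact test and with the term for the set (5.03%, 4.17% and 4.29% of all mRNAs), 26 within the most alike libraries (24.1% of all mRNAs), and 0 with limma and within the others. Leaving out 1 library gave 2 to 5 higher collagen genes (5 without EAE 4 or without PBS 4, where 2.81% and 1.13% of all mRNAs were higher), 0 to 1 lower genes and 0 to 8 partner genes (8 without EAE 4, 5 without EAE 5, 2 without PBS 3 and 0 without EAE 2 or PBS 2, where 7.38%, 5.05%, 1.25%, 0.812% and 0.807% of all mRNAs were called). With the replicate block, 2 collagen genes were higher and 1 was lower, the call of Col4a6 being lost (edgeR adjusted p = 0.0655). The labels give no shared litter or day for a number, and the deviations of same-numbered libraries correlated with r from −0.252 to 0.594, so the numbers were not taken to pair the mice. EAE 4 and EAE 8 correlated best with the PBS library of their own number, and the other 6 did not.

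Genes near 0 changed sign. Leaving out 1 library gave a log2FC from −0.16 to 0.17 for Col1a1, −0.022 to 0.11 for Col4a1, −0.049 to 0.040 for Col4a2, −0.042 to 0.12 for Col4a5, −0.076 to 0.024 for Col9a3 and −6.997e-05 to 0.080 for Col25a1. Within the most alike libraries the log2FC was −0.13 for Col4a2, −0.050 for Col4a1, −0.13 for Col1a2 and 0.003339 for Col9a3. Within the others it was −0.032 for Col25a1, −0.021 for Col1a1 and −0.057 for Col4a3. For Col9a3 limma gave 0.01753 and 0.01489 with pseudocounts of 0.1 and 1. The correlation was −0.39 for Col1a1 with Col3a1 in PBS libraries, −0.85 for Col6a1 with Col6a3 in EAE libraries, and −0.72 for Col1a1 with Col1a2 and −0.63 for Col3a1 with Dcn in the most alike libraries. The cause of these changes was not tested. The ratios of chains, with their values by set of libraries and without each library, were added after the data were seen. Genes with few counts, such as Col9a1 with 5 counts in its lowest library, had wide intervals. That of Col9a1, from −0.89 to 0.50, leaves the direction of a difference unknown.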
